A study of Populus tremula x Populus alba with 14 samples.

Results

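Transcript levels of 6 circadian clock genes were followed in bark of the poplar clone INRA 717-1B4, a Populus tremula x Populus alba hybrid. They were LHY1 (Potri.002G180800), LHY2 (Potri.014G106800), TOC1 (Potri.015G061900), GI (Potri.005G196700) and a pair of PRR5 genes, called PRR5a (Potri.012G005900) and PRR5b (Potri.015G002300) here. The genes were chosen by identifier, as poplar homologs of core clock genes, and all 6 passed the expression filter that left 27673 of the 41335 genes of the count table for testing. The libraries, labelled WT, came from trees of that clone, raised in a greenhouse and kept outdoors only in the growing season. Old stems were 6 to 8 mm in diameter and young stems 4 to 5.5 mm. From each, outer bark (phellem, or cork, and the phellogen, its meristem) and inner bark (secondary phloem with vascular meristem) were sampled separately. Old stems gave 4 libraries per layer and young stems 3 per layer, and no treatment or genotype differed between the groups.

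The plant circadian clock is a loop of transcription factors that repress one another in turn over the day. In Arabidopsis, LHY (LATE ELONGATED HYPOCOTYL) is a MYB-type repressor whose transcript peaks around dawn, PRR5 is a pseudo-response regulator that represses LHY and peaks in the afternoon, GI (GIGANTEA) is a protein of the late day that steadies a photoreceptor of the clock, and TOC1 is a pseudo-response regulator of the evening. LHY in turn represses the genes of the later day, so LHY on one side and PRR5, GI and TOC1 on the other have opposite phases in a daily cycle. In poplar, LHY and TOC1 have been linked to growth cessation, bud set and cold hardiness, and in chestnut stems winter cold holds LHY and TOC1 transcripts high with no daily cycle. The hour and the date of sampling are not stated in the labels, so differences by time of day, by season and by other properties of a stem cannot be told apart here.

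Total counts were between 11944485 and 15980636 per library, and the 6 genes had between 37 and 12306 counts in each library. Levels are given as CPM, counts scaled to library size after TMM scaling. CPM is not corrected for transcript length, so levels are compared between libraries and not between genes. Titles number the stems, and an outer and an inner library with the same number deviated together from their group means across genes, with correlations from 0.596 to 0.823 in all 7 pairs. They are treated as the 2 layers of 1 stem, although the labels do not state it, and the inner library of young stem 4 carries a leading title number out of sequence with its partner. The scaling factors were highest in both libraries of young stem 1 (1.13 and 1.09) and lowest in both of old stem 1 (0.899 and 0.917). Stem 1 of each age also stood apart from the other stems of its age over all genes. The chi-square per degree of freedom between 2 libraries of a group was 92.6 to 150 for pairs with old stem 1 and 17.4 to 36.2 for the other old pairs, and 59.3 to 77.3 for pairs with young stem 1 against 20.5 and 26.1 for the other young pairs. Tests that rest on stem 1 are therefore also given without it, while SDs over stems are not. The labelled tissues could not be set against cork or phloem marker genes, because the files pair no identifier with a name. Fewer cells of a type and less transcript per cell cannot be told apart in bulk tissue.

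The LHY genes had widely different levels in different stems of the same age. LHY1 stood at 164, 502, 481 and 111 CPM in the outer bark of old stems 1 to 4 and at 147, 432, 404 and 93.4 CPM in their inner bark. In young stems 1, 2 and 4 it was at 19.3, 491 and 344 CPM in outer and 11.4, 290 and 209 CPM in inner bark. Young stem 1 was thus the lowest in both layers, old stems 4 and 1 were intermediate, and the other stems were high whatever their age.

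LHY2, the close relative of LHY1, repeated this order with few exchanges. It was at 395, 835, 749 and 128 CPM in the outer bark of old stems 1 to 4 and at 379, 663, 551 and 107 CPM in their inner bark. In young stems 1, 2 and 4 it was at 10.96, 682 and 346 CPM in outer and 16.3, 389 and 225 CPM in inner bark. In old stems LHY1 averaged 315 ± 206 CPM in outer and 269 ± 174 CPM in inner bark (SD, n = 4). In young stems its averages were 285 ± 241 and 170 ± 143 CPM (SD, n = 3), and all 4 groups overlapped. LHY2 averaged 527 ± 327 and 425 ± 242 CPM in the outer and inner bark of old stems (SD, n = 4), against 346 ± 335 and 210 ± 187 CPM in young stems (SD, n = 3), again with overlap of all groups.

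The PRR5 genes, repressors of LHY, were at a high level in every old library and in both libraries of young stem 1, and were low in the other young stems. PRR5a was at 334, 255, 136 and 330 CPM in the outer bark of old stems 1 to 4 and at 326, 322, 164 and 252 CPM in their inner bark. Young stem 1 had 126 CPM in outer and 108 CPM in inner bark, from 2135 and 1810 counts. Young stems 2 and 4 had 3.10 and 2.77 CPM in outer and 2.81 and 4.17 CPM in inner bark, from 37 to 54 counts each. The level in young stem 1 therefore lay under the range of the old stems and far above the other young stems.

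PRR5b showed the same split over a smaller range. It was at 96.0, 139, 104 and 148 CPM in old outer and 121, 198, 146 and 132 CPM in old inner bark of stems 1 to 4. Young stem 1 was at 66.3 CPM in outer and 58.3 CPM in inner bark, while young stems 2 and 4 were at 6.06 and 5.47 CPM in outer and at 8.82 and 7.18 CPM in inner bark. No young library reached the lowest old one of its layer. The averages of PRR5a were 264 ± 92.5 CPM in outer and 266 ± 75.8 CPM in inner bark of old stems (SD, n = 4), and 43.9 ± 70.9 and 38.3 ± 60.4 CPM in young stems (SD, n = 3). Those of PRR5b were 122 ± 25.6 and 149 ± 34.2 CPM in old (SD, n = 4) and 25.9 ± 34.9 and 24.8 ± 29.0 CPM in young stems (SD, n = 3). For both genes the young SD exceeded the young mean.

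**Figure D1:**
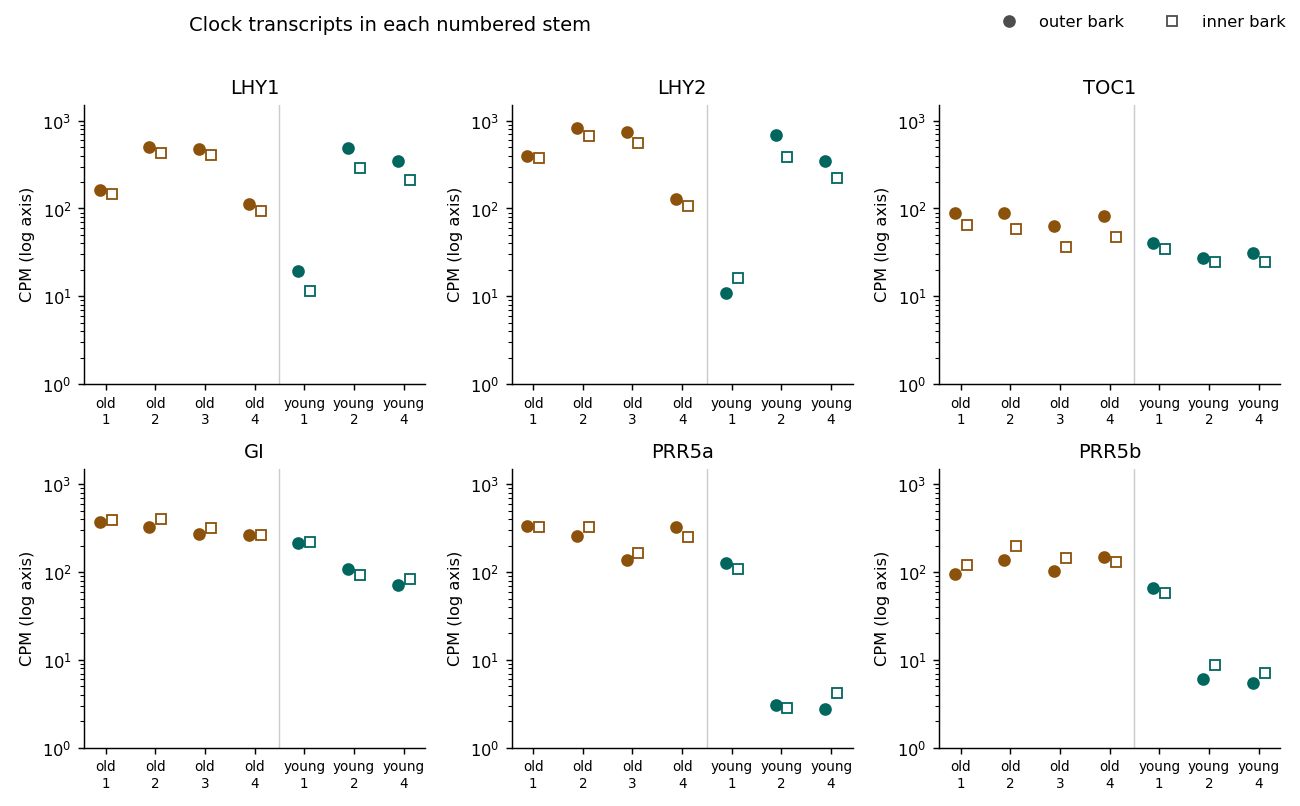
CPM (log axis) of each clock gene in the outer (filled circles) and inner bark (open squares) of old stems 1 to 4 and young stems 1, 2 and 4, 1 library per symbol. The layers of a stem lie close together, and young stem 1 is low for both LHY genes and above the other young stems for both PRR5 genes and GI.

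GI, a protein of the late-day clock, varied less. It was at 367, 322, 274 and 265 CPM in old outer and at 390, 399, 319 and 266 CPM in old inner bark of stems 1 to 4. In young stems 1, 2 and 4 it was at 216, 108 and 72.1 CPM in outer and 221, 91.7 and 84.5 CPM in inner bark. Young stem 1 was again above the other young stems and below every old stem. In old stems GI averaged 343 ± 62.9 CPM in inner and 307 ± 47.2 CPM in outer bark (SD, n = 4). In young stems it averaged 132 ± 76.6 CPM in inner and 132 ± 75.1 CPM in outer bark (SD, n = 3). The layers overlapped within each age and the ages did not overlap within a layer.

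TOC1, the evening repressor, had the smallest spread of the 6 genes over young stems. It was at 88.9, 88.3, 63.0 and 82.8 CPM in old outer and at 64.4, 58.6, 36.1 and 47.0 CPM in old inner bark of stems 1 to 4. In young stems 1, 2 and 4 it was at 39.9, 27.3 and 30.9 CPM in outer and at 34.4, 24.3 and 24.4 CPM in inner bark. Outer bark of old stems averaged 80.8 ± 12.1 CPM and their inner bark 51.5 ± 12.6 CPM (SD, n = 4). Outer bark of young stems followed with 32.7 ± 6.54 CPM and their inner bark with 27.7 ± 5.78 CPM (SD, n = 3), and each group overlapped its neighbour in that order.

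Whether stems of 1 age differed beyond the differences between their layers was tested by edgeR's quasi-likelihood F test, with a mean for each numbered stem and a layer term for each age. Among young stems all 6 clock genes passed at an adjusted p below 0.05, where 36.7% of all genes tested did. LHY1 had the lowest adjusted p of the 6 (6.88e-08), followed by PRR5a (2.55e-06), PRR5b (1.88e-05), LHY2 (3.62e-05), GI (6.78e-05) and TOC1 (0.00818). Among old stems 5 of the 6 passed, but so did 63.6% of all genes, so that this count is close to the background. Without old stem 1, an alternative added after seeing the data, 4 of the 6 passed, where 22.7% of all genes did. The adjusted p in old stems was 1.23e-06 for LHY1, 0.000283 for LHY2, 0.00195 for TOC1, 0.00341 for PRR5a, 0.0141 for GI and 0.0642 for PRR5b. The call was lost for TOC1 in young stems without the outer or the inner library of stem 1 (edgeR adjusted p = 0.0523 and 0.0686), for PRR5a in old stems without outer library 3 (edgeR adjusted p = 0.0517) and for GI in old stems without inner library 4 (edgeR adjusted p = 0.0575). GI in old stems also failed without old stem 1, old stem 4 or stem 1 of both ages (edgeR adjusted p = 0.0627, 0.0618 and 0.0699). PRR5b in old stems passed under 7 of 23 alternatives. These p-values rest on the layers of a stem as its only repeats.

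The sizes of the young differences separated the genes. In the fitted values, young stem 2 exceeded young stem 1 by a log2 difference of 4.67 ± 0.10 for LHY1 and 5.22 ± 0.32 for LHY2 (SE), and young stem 4 exceeded stem 1 by 4.18 ± 0.09 and 4.33 ± 0.30. The PRR5 genes went the other way. PRR5a was lower in young stem 2 than in stem 1 by a log2 difference of -5.30 ± 0.25 and in young stem 4 by -5.09 ± 0.25, and PRR5b by -3.08 ± 0.22 and -3.32 ± 0.23 (SE). GI moved with the PRR5 genes, by -1.13 ± 0.12 and -1.48 ± 0.12, and so did TOC1, by -0.52 ± 0.11 and -0.43 ± 0.11 (SE). The dawn-phased and the later-phased genes thus had opposite signs in both of these pairs of stems, which share young stem 1.

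Young stems 2 and 4 resembled each other more closely. The log2 difference of stem 4 from stem 2 was -0.49 ± 0.08 for LHY1, -0.89 ± 0.26 for LHY2, -0.35 ± 0.12 for GI and 0.09 ± 0.11 for TOC1 (SE). It was 0.21 ± 0.31 for PRR5a and -0.24 ± 0.25 for PRR5b. Without young stem 1, an alternative added after seeing the data, 2 of the 6 genes still differed between the remaining young stems, where 8.70% of all genes did. These were LHY1 (edgeR adjusted p = 0.0107) and LHY2 (edgeR adjusted p = 0.00244).

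The opposition was not regular among old stems. Old stem 4 had less LHY1 than old stem 2, by a log2 difference of -2.19 ± 0.08, and less LHY2, by -2.66 ± 0.27 (SE). Over the same pair PRR5a differed by 0.02 ± 0.19, PRR5b by -0.23 ± 0.19, TOC1 by -0.20 ± 0.10 and GI by -0.43 ± 0.12 (SE). In this pair the stem with less LHY thus had no later-phased gene at a level higher by more than its SE. Old stem 3 against old stem 1 was closer to the young pattern, with LHY1 2.83-fold higher and the log2 values of PRR5a, TOC1 and GI lower, by -1.14 ± 0.19, -0.66 ± 0.10 and -0.36 ± 0.12 (SE), while PRR5b differed by 0.20 ± 0.19. Old stem 4 against old stem 3 had LHY1 lower by -2.11 ± 0.08 with PRR5a higher by 0.96 ± 0.19 and TOC1 by 0.39 ± 0.10, but with GI at -0.15 ± 0.12 and PRR5b at 0.20 ± 0.19 (SE). Old stem 4 against old stem 1 had LHY1 at -0.61 ± 0.08, GI at -0.51 ± 0.12 and TOC1 at -0.28 ± 0.10 (SE), all lower. PRR5a was at -0.18 ± 0.19 and PRR5b at 0.40 ± 0.19 in that pair (SE). Old stem 2 against old stem 1 had LHY1 at 1.58 ± 0.08 and PRR5b at 0.63 ± 0.19, both higher (SE). There GI was at -0.08 ± 0.12, TOC1 at -0.07 ± 0.10 and PRR5a at -0.19 ± 0.19 (SE). Of the 7 stems, young stem 1 alone combined the lowest LHY of its age with the highest PRR5a, PRR5b, GI and TOC1 of its age, by the mean of the layers. Whether these differences come from the hour, the season or the stem cannot be told apart.

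Old and young stems also differed in how the genes combined. In outer bark, LHY1 was at 502 CPM in old stem 2 and 491 CPM in young stem 2, yet PRR5a was at 255 CPM in the first and 3.10 CPM in the second, and GI at 322 and 108 CPM. In old stem 3, LHY1 at 481 CPM likewise stood beside PRR5a at 136 CPM, whereas the young libraries with LHY1 at 209 CPM or more had PRR5a at 4.17 CPM or less.

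**Figure D2:**
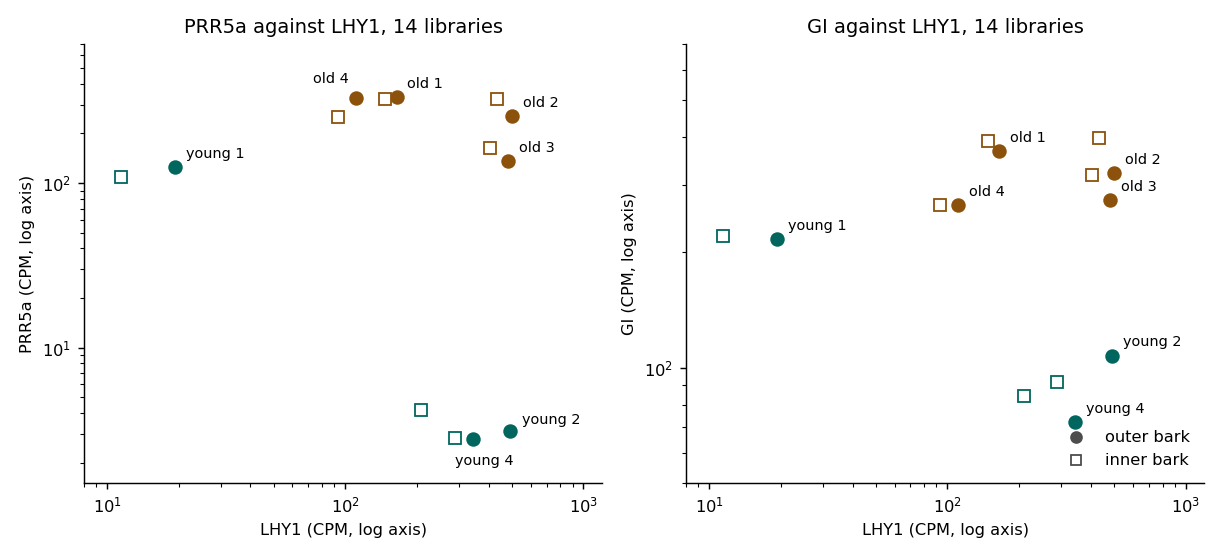
PRR5a (left) and GI (right) against LHY1 in the 14 libraries, in CPM on log axes, with filled circles for outer and open squares for inner bark. Young stem 1 lies at low LHY1 and high PRR5a, young stems 2 and 4 lie at high LHY1 and low PRR5a, and the old stems lie high for PRR5a and GI over a range of LHY1 from 93.4 to 502 CPM.

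Against the whole transcriptome the LHY and PRR5 genes were among the most variable between young stems. The SD over young stems of the mean log2 CPM of both layers was 2.97 for PRR5a, 2.81 for LHY2, 2.56 for LHY1 and 1.83 for PRR5b, where the median gene tested had 0.26. Only 59 genes had a larger SD than PRR5a, 87 than LHY2, 137 than LHY1 and 468 than PRR5b. GI had an SD of 0.78, above 86.7% of genes, and TOC1 one of 0.28, at the 52.1 percentile. These SDs include young stem 1 and were not computed without it. The log2 difference of young stem 4 from young stem 2 was 0.21 ± 0.31 for PRR5a and -0.24 ± 0.25 for PRR5b (SE). It was -0.49 ± 0.08 for LHY1 and -0.89 ± 0.26 for LHY2 (SE), so the large young SDs rest mostly on stem 1.

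In old stems the LHY genes were again among the more variable genes. LHY2 had an SD of 1.21, above 93.2% of genes, and LHY1 lay above 91.2%, with a median SD of 0.40 over all genes tested. PRR5a was at 0.51, TOC1 at 0.30, PRR5b at 0.27 and GI at 0.24, between the 26.4 and the 62.0 percentile. The mean absolute layer difference within a stem, in log2 CPM, was 0.44 for LHY1 and LHY2, below their SDs over stems. It was 0.48 for TOC1, above its SD over old or young stems, 0.37 for PRR5b, above its SD over old stems, 0.28 for PRR5a and 0.16 for GI. The median was 0.38 over all genes tested and 0.25 over the 16516 genes with a mean log2 CPM of 3 or more, among which LHY1, LHY2 and TOC1 lay between the 71.8 and the 74.6 percentile.

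**Figure D3:**
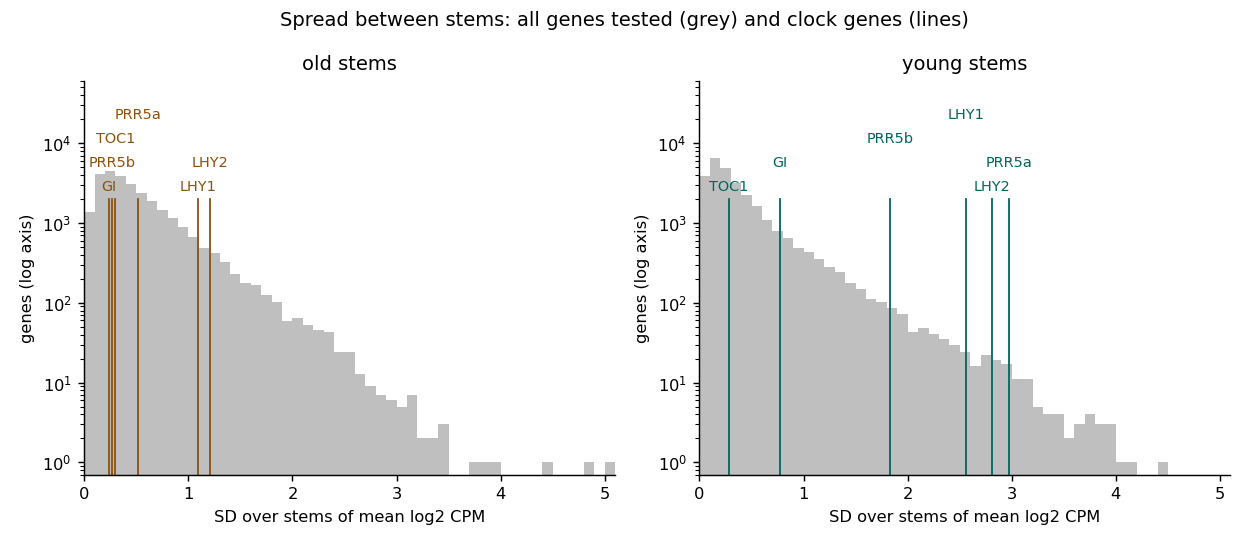
Number of genes (log axis) by their SD over stems of mean log2 CPM, in old (left) and young stems (right), for all genes tested (grey) with the clock genes marked by lines. In young stems both LHY genes and PRR5a lie beyond 2.5 and PRR5b beyond 1.8, and TOC1 lies near the middle of the genes.

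The comparison of ages within a layer gave 2 of the 6 clock genes in each layer, TOC1 and GI, both higher in old stems. In outer bark 22.0% of all genes passed and 8.50% passed as higher in old stems. In inner bark 29.1% passed and 14.2% were higher in old stems. TOC1 was higher in old stems by a log2 fold change of 1.30 ± 0.23 in outer bark (SE, edgeR adjusted p = 0.00365) and 0.89 ± 0.23 in inner bark (SE, edgeR adjusted p = 0.0134). GI was higher by 1.22 ± 0.40 in outer (SE, edgeR adjusted p = 0.0487) and 1.38 ± 0.41 in inner bark (SE, edgeR adjusted p = 0.0256).

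The PRR5 genes had larger fold changes than these and did not pass in the edgeR fit. PRR5b differed by a log2 fold change of 2.23 ± 0.91 in outer (SE, edgeR adjusted p = 0.0972) and 2.59 ± 0.93 in inner bark (SE, edgeR adjusted p = 0.0534), and PRR5a by 2.59 ± 1.41 (SE, edgeR adjusted p = 0.204) and 2.79 ± 1.43 (SE, edgeR adjusted p = 0.157). DESeq2 called PRR5b in outer (DESeq2 adjusted p = 0.0284) and inner bark (DESeq2 adjusted p = 0.00996) but not PRR5a, and so had 3 of the 6 genes in each layer, where 27.7% and 32.7% of all genes passed. In inner bark the edgeR fit also called PRR5b without young outer library 1, 2 or 4 or young inner library 1 (edgeR adjusted p between 0.0109 and 0.0460). The young group held both libraries of young stem 1. With young stem 1 left out, all 4 later-phased genes passed in both layers, where 22.3% of all genes passed in outer and 29.0% in inner bark, and the log2 fold changes rose to 6.59 and 6.25 for PRR5a (edgeR adjusted p = 0.000242 in outer and 0.000196 in inner bark) and to 4.48 and 4.22 for PRR5b (edgeR adjusted p = 0.00013 and 8.81e-05). LHY1 and LHY2 did not pass in either layer, with log2 fold changes between 0.15 and 1.02 and SE between 1.05 and 1.15. Without young stem 1 the value of LHY1 in outer bark changed sign, to -0.33.

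The groups themselves were apart for 4 genes. Every old library lay above every young library of its layer for TOC1, GI, PRR5a and PRR5b, in outer as in inner bark, which held for 15.3% of all genes in outer and 19.2% in inner bark. Because the fit counts the layers of a stem as independent, its age p-values may be too small. With the stem as a random effect in limma, the same 4 genes passed in both layers, with adjusted p between 0.00229 and 0.0120, where 20.1% of all genes passed in outer and 25.3% in inner bark. Limma without a stem effect also called both PRR5 genes in both layers (limma adjusted p between 0.0130 and 0.0295). Their limma calls thus do not rest on the random effect. An exact two-sided permutation test over the 7 stem means, run once for each of the 6 genes, gave p = 0.0286, the smallest that 4 against 3 stems allow, for each of TOC1, GI, PRR5a and PRR5b. It gave p = 0.543 for LHY1 and p = 0.4 for LHY2 in the same exact permutation test. For the other 4 genes this p reflects the same separation as the lack of overlap, and is not separate support.

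The GI call in outer bark was the weakest of these. It held under 11 of 26 alternatives, and it was lost without any 1 of the 4 old outer libraries, of old inner libraries 2, 3 or 4, or of young outer libraries 2 or 4 (edgeR adjusted p up to 0.177). In inner bark the GI call was lost without old inner library 2 or young inner library 2 or 4 (edgeR adjusted p up to 0.103), and the TOC1 call without young inner library 2 or 4 (edgeR adjusted p up to 0.0597). Without old stem 1 the outer bark comparison called 1 clock gene, TOC1, where 31.3% of all genes passed, and GI did not pass (edgeR adjusted p = 0.0775). The inner bark comparison then still called TOC1 and GI, where 40.0% of all genes passed. The fold changes of TOC1 and GI were positive under every alternative run.

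**Figure D4:**
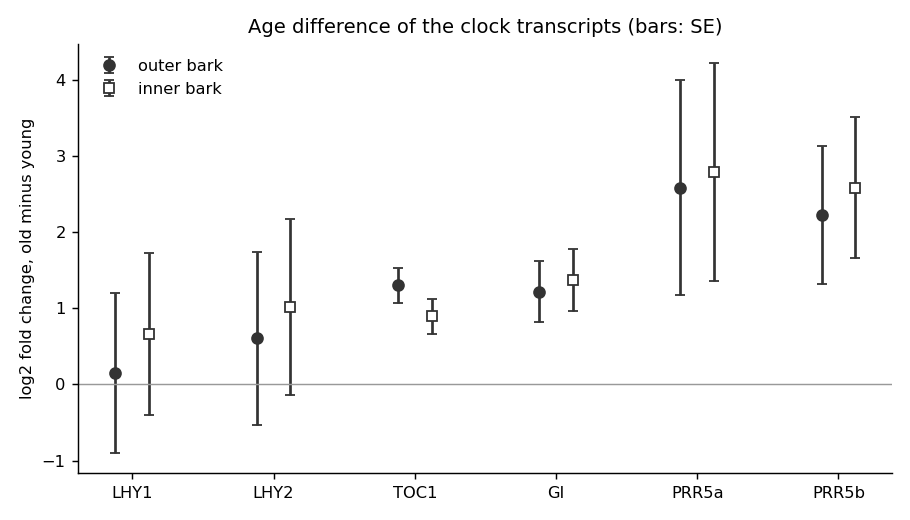
Fitted log2 fold change of old minus young stems for each clock gene in outer (filled circles) and inner bark (open squares), with bars of 1 SE. TOC1 and GI are higher in old stems with SEs from 0.23 to 0.41, and the SEs of the PRR5 and LHY genes run from 0.91 to 1.43.

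Outer and inner bark were compared within each age. The fit of group means called 0 of the 6 clock genes in old stems, where 10.4% of all genes passed, and 0 in young stems, where 0.387% did. At an unadjusted p below 0.05 the edgeR fit gave 1 clock gene, TOC1 in old stems (edgeR adjusted p = 0.0688), where 22.7% of all genes were below it. DESeq2 called 1, also TOC1 in old stems (DESeq2 adjusted p = 0.0354), where 14.6% of all genes passed, so that 1 of 6 is near the background in both. Without old inner library 1 the edgeR fit called TOC1 as well (edgeR adjusted p = 0.0416). With the stems as blocks, which compares the layers of 1 stem with each other, 39.3% of genes passed in old and 33.3% in young stems. Of all genes tested, 18.8% in old and 18.6% in young stems passed as higher in outer bark. This fit called LHY1 and TOC1 in old stems and LHY1 in young stems, all higher in outer bark. With the stem as a random effect in limma, TOC1 in old stems was the only call, where 34.7% of all genes passed in old and 29.2% in young stems.

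LHY1 was higher in the outer bark of all 7 stems, by narrow and regular ratios. In old stems 1 to 4 outer over inner was 1.11, 1.16, 1.19 and 1.19, and in young stems 1, 2 and 4 it was 1.69, 1.69 and 1.65. The ratio in young stem 1 matched those of the other young stems although its fitted LHY1 level was 18.1-fold below young stem 4 and 25.4-fold below young stem 2. With the stems as blocks the log2 layer difference was 0.22 ± 0.06 in old (SE, edgeR adjusted p = 0.0140) and 0.74 ± 0.07 in young stems (SE, edgeR adjusted p = 0.000277). The call in old stems was lost without old stem 3 (edgeR adjusted p = 0.0575) or old stem 4 (edgeR adjusted p = 0.0506), and the call in young stems held without each stem in turn. With the stem as a random effect the log2 values were 0.22 and 0.74 and neither passed (limma adjusted p = 0.723 in old and 0.241 in young stems). That fit applied the same correlation within stems, 0.781, to all genes. Its SEs for LHY1 were 0.42 in old and 0.46 in young stems.

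TOC1 was also higher in the outer bark of all 7 stems. Its ratio was 1.38, 1.51, 1.75 and 1.76 in old stems 1 to 4 and 1.16, 1.12 and 1.27 in young stems 1, 2 and 4. The log2 layer difference with the stems as blocks was 0.67 ± 0.07 in old (SE, edgeR adjusted p = 0.000115) and 0.24 ± 0.09 in young stems (SE, edgeR adjusted p = 0.0637). The dawn-phased LHY1 and the evening-phased TOC1 thus had the same layer direction in every stem.

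None of the other clock genes had the same layer direction in all 7 stems. LHY2 was higher in outer bark in 6 of 7 stems, by 1.04 to 1.75, and lower in young stem 1, at 0.673, where it had 186 counts in outer and 273 in inner bark. Without young stem 1 its blocked layer difference in young stems was 0.67 ± 0.11 on the log2 scale (SE, edgeR adjusted p = 0.00236), against 0.37 ± 0.22 with it (SE, edgeR adjusted p = 0.237). GI was higher in outer bark in 1 of 7 stems, with ratios from 0.809 to 1.17, PRR5a in 4 of 7, from 0.664 to 1.31, and PRR5b in 2 of 7, from 0.687 to 1.14. None of GI, PRR5a and PRR5b passed between the layers in either fit.

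Whether the layer difference changed with age was asked of the interaction. The fit of group means called 0 of the 6 genes and 0% of all genes, with 1226 genes at an unadjusted p below 0.05 and none of the 6 clock genes among them. With the stems as blocks 10.3% of all genes passed, and LHY1 and TOC1 were among them. The log2 layer difference of old stems minus that of young stems was -0.53 ± 0.09 for LHY1 (SE, edgeR adjusted p = 0.00976) and 0.43 ± 0.11 for TOC1 (SE, edgeR adjusted p = 0.0461). With the stem as a random effect the interaction passed for neither LHY1 (limma adjusted p = 0.657) nor TOC1 (limma adjusted p = 0.0844), where 4.95% of all genes passed. The ratios of old and young stems did not overlap for LHY1 or for TOC1, which was so for 24.1% of all genes. An exact two-sided permutation test of the 7 ratios gave p = 0.0286 for LHY1, the smallest that it can give, and p = 0.0571 for TOC1. These p-values reflect the same separation as the lack of overlap and are not separate support. The LHY1 call was lost without young stem 2 (edgeR adjusted p = 0.0605), and the TOC1 call without old stem 2, 3 or 4 or young stem 2 or 4 (edgeR adjusted p between 0.0730 and 0.122).

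**Figure D5:**
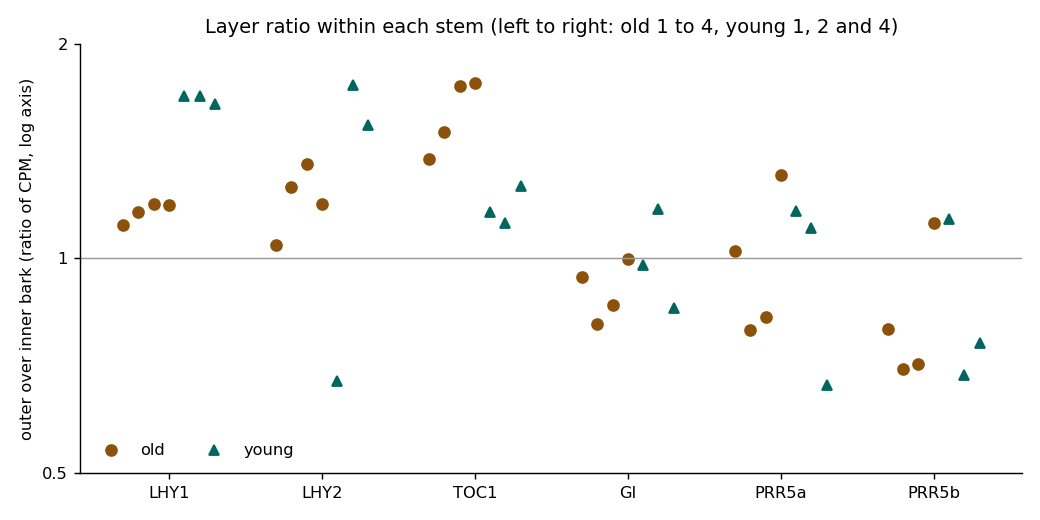
Ratio of outer to inner bark CPM (log axis) within each stem, in the order old 1 to 4 (circles) and young 1, 2 and 4 (triangles) for each gene. LHY1 and TOC1 lie above 1 in all 7 stems, with the young ratios above the old ones for LHY1 and below them for TOC1.

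Within the gene pairs, the balance of the copies also moved between stems. How the authors' counting treated reads that match both copies is not stated, so these ratios are uncertain. The ratio of LHY1 to LHY2 CPM in old stems 1 to 4 was 0.416, 0.601, 0.643 and 0.867 in outer and 0.389, 0.652, 0.733 and 0.869 in inner bark. In young stems 1, 2 and 4 it was 1.76, 0.720 and 0.993 in outer and 0.700, 0.745 and 0.928 in inner bark. The layers were farthest apart in young stem 1, where both genes were low, with LHY1 at 327 and LHY2 at 186 counts in outer bark and 191 and 273 counts in inner bark.

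The ratio of PRR5a to PRR5b separated the stems where both were low from the rest. It was 3.48, 1.84, 1.31 and 2.23 in outer and 2.70, 1.63, 1.13 and 1.91 in inner bark of old stems 1 to 4, and 1.90 in outer and 1.85 in inner bark of young stem 1. In young stems 2 and 4 it was 0.512 and 0.506 in outer and 0.319 and 0.581 in inner bark. The ratio was below 1 in the 4 libraries with the least PRR5 transcript and above 1 in the other 10. Transcript length is not corrected for, so only its change between libraries is meaningful.

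Likeness between genes was described by Pearson's r of log2 CPM over the 14 libraries, which are 7 stems in 2 layers, among genes whose mean log2 CPM reached 3. The clock genes fell into an LHY pair and a set of GI and both PRR5 genes, with TOC1 farther off. Both ages are pooled in r, so the higher levels of TOC1, GI and the PRR5 genes in old stems enter it. LHY2 ranked 2 among 16515 genes in likeness to LHY1 (r = 0.968), and PRR5b ranked 2 in likeness to PRR5a (r = 0.983). PRR5a ranked 6 in likeness to GI (r = 0.969) and PRR5b ranked 9 (r = 0.966). TOC1 was less close to GI (r = 0.810, rank 1314) and to PRR5a (r = 0.830, rank 919).

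LHY1 was not the mirror image of the later genes over all libraries. Its r was 0.07 with TOC1, -0.10 with GI, -0.25 with PRR5a and -0.15 with PRR5b, and PRR5a, the most opposed of the clock genes, ranked 3210 from the lowest of 16515 genes. The gene most like LHY1 was Potri.001G025100 (r = 0.984), at 38.7 CPM in the outer bark of young stem 1 and 331 and 260 CPM in that of young stems 2 and 4. The gene most opposed to LHY1 was Potri.014G079900 (r = -0.902), at 132 CPM in the outer bark of young stem 1 and 61.9 and 82.3 CPM in that of young stems 2 and 4. The gene most like GI was Potri.008G149300 (r = 0.988) and the most opposed Potri.006G110000 (r = -0.989). The files give no name for these identifiers.

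All 6 genes are listed at both ages in the authors' deposited tables of inner against outer bark, with 3398 of 30947 listed genes at an edgeR adjusted p below 0.05 in old stems and 1247 of 31096 in young stems. In the authors' deposited table for old stems, TOC1 had a log2 fold change of -0.688 for inner minus outer bark, an edgeR p of 0.041 and an adjusted p of 0.23. No clock gene was below an adjusted p of 0.05 there by DESeq or edgeR, at either age.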

How the data were processed

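The 14 bark libraries did not keep strand, per the labels' protocols, so antisense reads are counted with the gene they overlap. The authors deposited raw read counts per gene, all whole, whose totals differ by library. Per the submitters' processing notes, HTSeq, TopHat, Bowtie, Cufflinks, Trimmomatic, CASAVA, edgeR and DESeq were used, while the genome build and the tools' roles and versions were not given in the sources used here. Comparison tables deposited by the authors hold log2 fold changes and log2 CPM, p-values and adjusted p-values per the file headers. Their count columns equal the count table, and their normalized columns, rounded scores by the authors, were not used.

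Groups and stem numbers were taken from the titles. Nothing in the labels says that numbers are separate trees, so p-values cover only the spread among the libraries, which may be technical. Counts were filtered with filterByExpr, given TMM factors and tested in edgeR 4.0.16 (R 4.3.3) with the robust quasi-likelihood F test. The main fit had 4 group means and 10 residual degrees of freedom. In a second fit each of the 7 stems had its mean, with 1 layer term per age and 5 residual degrees of freedom. The numbers were taken to pair the layers because all 7 correlations of same-numbered libraries passed 0.1, with every library correlating best with its own number. P-values were adjusted by Benjamini-Hochberg over all 27673 tested genes and called below 0.05, and log2 CPM used a prior count of 2. SEs were derived from the F statistics. Libraries of the same group all differed beyond sampling noise, most in the pairs that held stem 1. The fits were tested on simulated data with known changes, drawn independently for each library. Apart from changes set in young stem 1, the layers shared no stem differences there. The simulation therefore cannot check the age p-values against such differences.

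All 6 genes are named, with the genes most like or most opposed to LHY1 and GI by Pearson's r (the rule took 3 for each clock gene, and 1 each for LHY1 and GI is printed, since no names are paired with identifiers). The members, lists, tests and alternatives were chosen with earlier results of these data known. Planned lists of other clock, season, light and tissue marker genes, promoter motifs and protein comparisons needed gene descriptions or sequences, and were not analysed here. The alternatives were RLE and upper-quartile factors, other count filters, limma 3.58.1 (voom), DESeq2 1.42.0, the stem as a block or a random effect, only the groups compared, and leaving out libraries or stems. Leaving out young stem 1, old stem 1, old stem 4, or each stem from the blocked calls was added after seeing the data.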

Additional observations from a re-analysis of the deposited data

Results flagged for a closer look

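The layer difference of LHY1 was smaller in old than in young stems when the stems were taken as blocks, with a log2 value of -0.53 for old minus young. For TOC1 the same interaction was 0.43, a larger layer difference in old stems. The difference between the ages was itself tested for both genes, and every old ratio lay on 1 side of every young ratio. The TOC1 interaction passed in 2 of 7 stem omissions and had an exact permutation p of 0.0571. With the stem as a random effect neither passed (limma adjusted p = 0.657 for LHY1 and 0.0844 for TOC1), nor did either in the fit without blocks (edgeR adjusted p = 1.00 for both).

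Of 12 sets of 4 old libraries (6 genes in 2 layers), 0 held a library far from the rest by Dixon's test, which marks about 1 set in 20 by chance. The sets of 3 young libraries were not put to this test, so young stem 1 was not examined in this way.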

How the results depend on the processing

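Leaving out young stem 1 changed the age comparison. Then 4 clock genes passed in outer and 4 in inner bark, against 2 in each. Over all genes 6260 passed in outer and 8129 in inner bark, against 6092 and 8048. The counts were also 4 and 4 when both ages lost stem 1, but 10463 and 13120 of all genes passed there. Likewise 4 and 4 passed in limma voom, with or without the stem as a random effect. The random effect fit called 5564 and 6995 of all genes. Only 1 passed in outer bark with upper-quartile factors, with no filter, with the stricter filter, with only the groups compared, or without old stem 4 or old stem 1. Of all genes, 3780 passed with only the groups compared, 3565 without old stem 4 and 8622 without old stem 1. Leaving out 1 library at a time gave 1 to 4 clock genes in outer and 0 to 4 in inner bark. Over all genes it gave 2715 to 7321 and 4554 to 9864. Among young stem numbers 2 clock genes differed without young stem 1, where 8.70% of all genes did.

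With the stem number as a replicate block, the layers gave 2 clock genes in old stems, 1 in young stems and 2 for the interaction, against 0 each. Of all genes 39.3%, 33.3% and 10.3% passed with the block, against 10.4%, 0.387% and 0%. In old stems the random effect, DESeq2 and both ages without stem 1 gave 1, where 9608, 4558 and 5216 of all genes passed. Leaving out 1 library gave 0 to 1, where 1554 to 3439 of all genes passed. The random effect gave 0 in young stems and 0 for the interaction, so the LHY1 layer calls and both interaction calls rest on the block. The random effect used the same correlation within stems, 0.781, for all genes. The blocked value of PRR5b in young stems was -0.16, reversed from 0.07.

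All 63 reversals were of values that had not passed. The PRR5a layer value in old stems was 0.0106 with RLE factors, 0.00509 with no filter, 0.00548 with the stricter filter, 0.0117 in DESeq2, 0.00269 with only the groups compared and 0.0361 without young stem 1. In young stems limma gave 0.000802 for GI, -0.15 for PRR5a and -0.28 for PRR5b, the random effect -0.12 and -0.26 for the PRR5 genes, both ages without stem 1 gave 0.0314, -0.25 and -0.47 for GI, PRR5a and PRR5b, and young stem 1 left out -0.30 and -0.52 for the PRR5 genes. LHY1 between ages in outer bark was -0.14 with both ages without stem 1 and -0.33 without young stem 1. The interaction of PRR5a was 0.11 in limma, 0.0746 with the random effect, 0.22 with both ages without stem 1 and 0.34 without young stem 1, and that of PRR5b 0.19 and 0.26 in the last of these settings. The cause was not tested.

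Leaving out 1 library in turn, the layer value in old stems ran from -0.0792 to 0.56 for LHY1, from -0.0115 to 0.64 for LHY2 and from -0.19 to 0.20 for PRR5a. In young stems it ran from -0.27 to 1.52 for LHY2, from -0.56 to 0.58 for GI, from -3.71 to 3.65 for PRR5a and from -2.11 to 1.70 for PRR5b. The age value of LHY1 in outer bark ran from -0.41 to 0.86. The interaction ran from -1.13 to 0.19 for LHY1, from -1.20 to 0.60 for LHY2, from -0.75 to 0.40 for GI, from -3.67 to 3.70 for PRR5a and from -1.995 to 1.81 for PRR5b.

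Counts over all genes moved as well. Over the alternatives they ran from 921 to 10862 for the layers of old stems, from 0 to 9220 for those of young stems, from 2715 to 10463 for age in outer and 4554 to 13120 in inner bark, from 0 to 2838 for the interaction, and from 6253 to 17647 and 2440 to 11158 among old and young stem numbers. Under other scalings all 96 levels and stem spreads stayed within the limit set. The limit was a shift below the group SD for a level, and below the spread itself for a stem spread. These limits are wide, so the count says little about how steady the values were. Precision was limited by 3 young stems, 1 of them unlike the others, and for PRR5a by 37 to 54 counts in 4 young libraries.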
